A study of Caenorhabditis elegans with 6 samples.

Results

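The fbxa genes of Caenorhabditis elegans encode proteins that pair an F-box with a second, nematode-expanded domain, and the transcript levels of 171 of them were followed in whole adults kept with or without octopamine. The members were all genes with a symbol starting fbxa- to which the array's annotation assigned a probe set of their own. They made up 171 of the 17118 named genes on the array and were read from 175 probe sets. For the 4 genes with 2 probe sets, the one with the higher mean over the arrays was used. Probe sets shared by several genes were not assigned to any of them.

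The series held 6 single-colour Affymetrix arrays of whole-body RNA, and each strain was represented by 1 treated and 1 untreated array. The 3 strains used were daf-16(mu86), which lacks the FOXO transcription factor DAF-16, ser-3(ok2007);ser-6(tm2146), which lacks a pair of octopamine receptors and is called the receptor mutant here, and the wild type N2. All groups were raised for 3 days and then spent 2 days on plates with octopamine at 20 mg/mL or without it, and the age is given as day 4 of adulthood in one label and as 5 days in the extraction protocol. Octopamine is a biogenic amine with a part in the fasting response of the worm, and the series title asks how it relates to stress resistance and to DAF-16.

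F-box proteins are the substrate-recognition parts of SCF ubiquitin ligases. The F-box binds a Skp1-related protein (SKR in the worm), which in turn binds a cullin, and the rest of the F-box protein holds the protein that is to be ubiquitinated. In FBXA proteins the second domain is the FTH domain, named for its likeness to FOG-2, a germline protein of hermaphrodite sex determination. The family is greatly expanded and fast-evolving in C. elegans, many members lie in clusters of close copies, and most have no assigned function. Among the exceptions are FBXA-75 and FBXA-158, which act as adaptors of the CUL-6 ligase of the intracellular pathogen response. No fbxa sequence is shown.

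Values are linear intensities, called signals here, scaled so that every array had the same median. As deposited, the medians ran from 23.8 to 25.96, and correlations between arrays over genes lay between 0.963 and 0.994. Of the targeted genes, the 4 daf-16 probe sets were lower in daf-16 than in N2 by log2 ratios of -2.78 to -0.45 with octopamine and -2.76 to -0.37 without. The ser-3 probe set was lower in the receptor mutant by -0.57 with octopamine and -0.37 without, and where the probe sets lie relative to the deletions is not known. No level of ser-6 is given, so the other mutated gene of that strain was not checked. Lists of cell-type markers were also followed, and of all tested genes 7.37% rose and 14.7% fell with octopamine. The summed signals of intestine, embryo and neuron markers did not overlap between arrays with and without octopamine, while those of the other lists did. Of 14 intestine markers tested 1 rose and 6 fell, and their summed signal was 43474 to 49690 on arrays with octopamine against 54900 to 57744 without. Of 15 oocyte and eggshell markers 1 fell, with sums of 39163 to 45528 against 45295 to 50322, and of 10 embryo markers 2 rose and 1 fell, with sums of 2091 to 2314 against 2356 to 2888. Of 9 neuron markers 2 rose (1796 to 1858 against 1695 to 1760), of 10 body wall muscle markers 2 rose (4022 to 6267 against 3839 to 5560), of 10 hypodermis markers 3 rose and 2 fell (3775 to 5095 against 3948 to 5676), and of 9 sperm markers none changed (390.3 to 572.5 against 449.0 to 572.0). These sums cover every listed marker on the array, whether tested or not. The ratio of 3′ to 5′ probe signal of a ubiquitin control, a sign of RNA quality, was 5.74 to 6.23 with octopamine against 5.32 to 5.48 without. The same ratio of an actin control overlapped between treatments, at 1.79 to 2.00 with octopamine against 1.69 to 2.14 without. The part of these shifts in the results on fbxa genes was not tested. In whole animals, fewer cells of a type and less RNA per cell cannot be told apart.

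Most fbxa genes gave little signal in these adults. Testing was limited to genes whose mean signal was at least 15.5, the 40th percentile over probe sets. That left 62 of the 171 fbxa genes (36.3%), against 10251 of the 17118 named genes (59.9%). The median of the mean signals was 10.3 over all 171 members and 24.4 over all named genes. Among the tested genes it was 40.7 for fbxa and 114 for all. At the other end, 7 members had a mean of 100 or more and 21 had 50 or more.

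The low end held most of the family. The 109 members left untested had mean signals from 4.502 to 15.2, and 100 members stayed below 15.5 on every array. Of the 62 tested, 53 were at or above that signal on all 6 arrays. The other 9 were below it on some arrays, so their ratios are uncertain in size. Those nearest the limit were fbxa-51, at a mean of 15.50, and fbxa-177, at 15.19, the first just inside and the second just outside.

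The current gene table of assembly WBcel235 matched all 171 members by identifier. It classes 135 as protein coding and 36 as pseudogenes. The classes had similar signals: the median of mean signals was 10.1 for protein-coding members and 10.3 for pseudogenes, and 50 (37.04%) of the protein-coding members and 12 (33.3%) of the pseudogenes were tested. By chromosome, 74 members lie on V, 45 on III, 19 on II, 14 on X, 13 on I and 6 on IV. Of the tested members 28 lie on V, 15 on III, 8 on I, 5 on X and 3 each on II and IV. Chromosome II thus had 19 members on the array and 3 with enough signal to test.

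A few members stood far above the rest. fbxa-215 on chromosome IV had signals of 859, 877 and 720.0 with octopamine in daf-16, the receptor mutant and N2, against 954, 869 and 1059 without. The N2 arrays held both its lowest and its highest value. Its probe set carries the suffix that marks probes matching more than 1 transcript, so the signal may not come from fbxa-215 alone. The same limit holds for all 10 tested members with such a probe set. They are fbxa-215, fbxa-101, fbxa-60, fbxa-123, fbxa-206, fbxa-156, fbxa-67, fbxa-112, fbxa-69 and fbxa-182.

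fbxa-210 on V was nearly level, at 436, 441 and 428 with octopamine against 480.4, 475 and 463 without. All 3 treated arrays lay below all 3 untreated ones, by log2 ratios of only -0.14, -0.11 and -0.11, and the fitted change of -0.12 did not pass the test described next and was 0.00 after quantile normalization. fbxa-101 on I, whose probe set also has the suffix, had 363, 314 and 429 with octopamine against 416, 395 and 426 without. Its ratio was negative in daf-16 (-0.20) and the receptor mutant (-0.33) and near 0 in N2 (0.01).

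**Figure D1:**
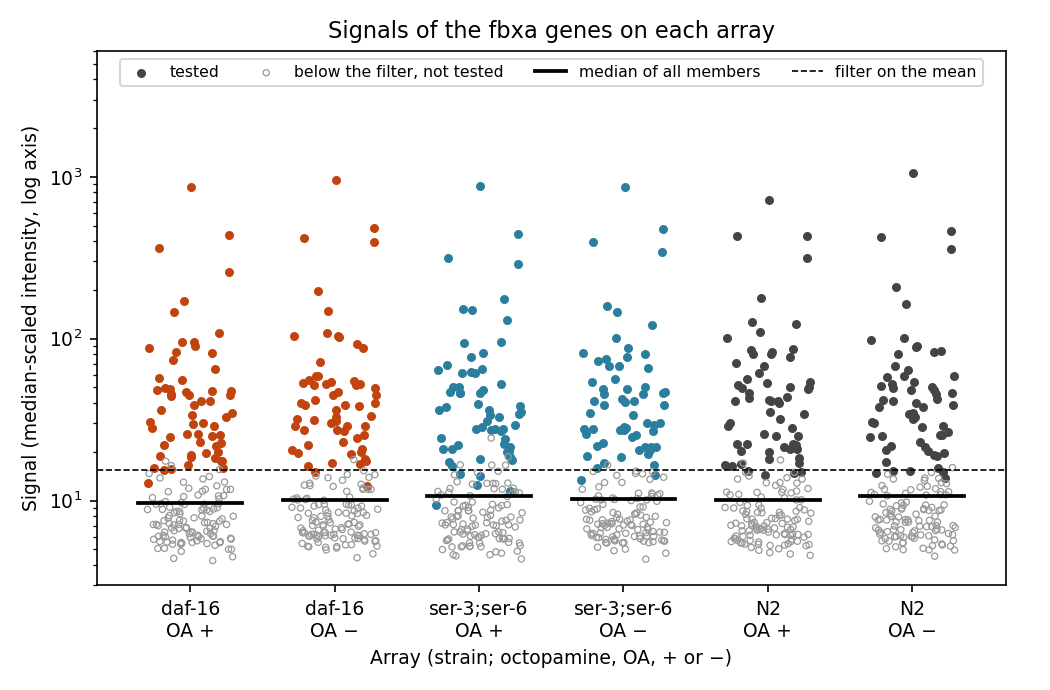
Signal of each of the 171 fbxa genes on each of the 6 arrays (vertical log axis, median-scaled intensity), with filled points for the 62 tested genes, open points for those below the filter, bars for the median of all members and a dashed line at the filter signal of 15.5. On every array most members lie below the line, and 7 members have a mean signal of 100 or more.

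Levels of the tested members varied little across the arrays. The ratio of the highest to the lowest of a gene's 6 signals had a median of 1.40 over the 62 tested fbxa genes and 1.41 over all tested genes. It was under 1.5-fold for 44 of the 62. It reached 2-fold for 3 of them (4.84%), against 10.8% of all tested genes. These 3 were fbxa-163 at 4.11-fold, fbxa-51 at 2.63-fold and fbxa-181 at 2.48-fold.

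With octopamine, 6 of the 62 tested fbxa genes changed. One, fbxa-163, rose, and 5 fell: fbxa-181, fbxa-200, fbxa-51, fbxa-93 and fbxa-107. The test was an additive limma model over all 6 arrays with terms for strain and octopamine, with Benjamini-Hochberg adjustment over 10251 genes. The 6 members were 9.68% of those tested, against 22.1% of all tested genes (7.37% higher and 14.7% lower). After quantile normalization the count was again 6, with 2 higher and 4 lower. The shares just given belong to the median-scaled fit and are not the background of that count. Quantile normalization also moved the median octopamine ratio over all tested genes, to -0.00067 in daf-16, 0.0088 in the receptor mutant and 0.0020 in N2. At an unadjusted p under 0.05 there were 3 higher and 11 lower members, 22.6% against 36.7% of all tested genes. How far the octopamine change varied from strain to strain is the error of the model. Nothing in the labels tells whether separate cultures were used, and the p-values therefore cover only the variation among these 6 arrays, which may be technical.

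fbxa-163, a protein-coding gene on chromosome II, had signals of 64.6 in daf-16, 175 in the receptor mutant and 86.3 in N2 with octopamine. Without octopamine it had 52.8, 66.3 and 42.7. Each strain was higher with octopamine, but the groups overlapped, since treated daf-16 lay just below the untreated receptor mutant. The log2 ratios were 0.29 in daf-16, 1.40 in the receptor mutant and 1.02 in N2. The fitted change was 0.90 ± 0.19 (SE; adjusted p = 0.0139 in limma after Benjamini-Hochberg adjustment, higher in 3 of 3 strains).

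The size of the fbxa-163 change differed between the strains. The octopamine change in daf-16 minus that in N2 was -0.72 on the log2 scale, and in the receptor mutant minus that in N2 it was 0.39. With 1 array in each group neither difference could be tested. Without the receptor-mutant pair of arrays the fitted change was 0.65 (adjusted p = 0.0192, limma), and without the daf-16 pair it was 1.21.

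fbxa-181, a protein-coding gene on chromosome V, had 18.6, 14.1 and 20.0 with octopamine in daf-16, the receptor mutant and N2, against 32.8, 27.1 and 35.0 without. The treated arrays were all below the untreated ones, and the ratios were alike at -0.82, -0.94 and -0.80. The fitted change was -0.85 ± 0.11 (SE; adjusted p = 0.00183, limma), 1.81-fold lower in 3 of 3 strains. It had the lowest adjusted p of the fbxa genes.

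fbxa-200 on chromosome II, classed as a pseudogene, behaved much the same. Its signals were 19.1, 18.2 and 18.2 with octopamine against 31.2, 28.5 and 31.8 without, with no overlap. The ratios were -0.71, -0.65 and -0.81 and the fitted change -0.72 ± 0.11 (SE; adjusted p = 0.00369, limma), 1.65-fold lower.

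fbxa-51, a protein-coding gene on chromosome III, had 12.9, 9.40 and 16.6 with octopamine against 20.7, 13.5 and 24.7 without. Each strain was lower with octopamine, by -0.68, -0.52 and -0.57, but the levels of the strains differed enough for the treated and untreated ranges to overlap. The fitted change was -0.59 ± 0.10 (SE; adjusted p = 0.00707, limma), 1.51-fold lower. Of its 6 signals 3 lay below the filter, and its mean reached the filter only through the N2 arrays and untreated daf-16. The gene was thus tested largely through untreated arrays, where it was high. Its call is therefore no support for a fall in the family, and the size is uncertain.

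fbxa-93 on chromosome I, also classed as a pseudogene, had 18.8, 17.4 and 22.4 with octopamine against 27.2, 27.5 and 25.1 without. The groups did not overlap, but the ratio in N2 was small, at -0.17, while daf-16 gave -0.53 and the receptor mutant -0.66. The fitted change of -0.45 ± 0.13 (SE) had an adjusted p of 0.0383 in limma. It was 0.103 without the daf-16 pair, 0.0942 without the receptor-mutant pair and 0.0672 with the values as deposited. A second, dimmer probe set of this gene, with a mean signal of 9.11, gave ratios of -0.16, -0.36 and -0.12.

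fbxa-107 on chromosome V, the fourth brightest member, had 259, 289 and 316 with octopamine against 394, 344 and 357 without. Every treated array was below every untreated one. The ratio was -0.60 in daf-16, -0.25 in the receptor mutant and -0.17 in N2, and the fitted change was -0.34 ± 0.10 (SE; adjusted p = 0.0478, limma). Without the daf-16 pair of arrays the fitted change was -0.21 and the adjusted p 0.353, and without the N2 pair the adjusted p was 0.0709. The call held in 5 of 12 settings of the fit, whose adjusted p ran from 0.029 to 0.353.

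**Figure D2:**
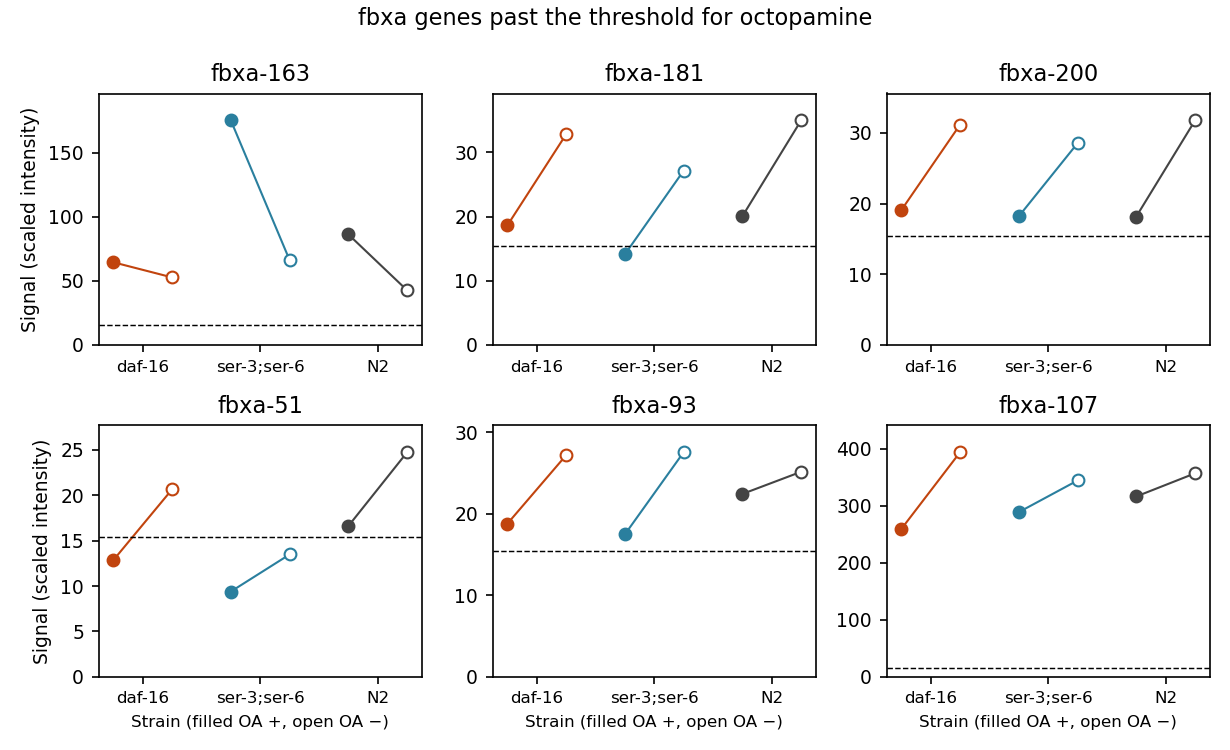
Signals of the 6 fbxa genes past the adjusted threshold for octopamine, one panel per gene (vertical axis, median-scaled intensity from 0), with filled points with octopamine and open points without, joined within each strain, and a dashed line at the filter signal of 15.5. fbxa-163 is higher with octopamine in all 3 strains, at 175 on the treated receptor-mutant array, and the other 5 genes are lower with octopamine in all 3 strains.

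Several further members stood close to the threshold without passing it. Among those given here, fbxa-60 and fbxa-215 have probe sets with the suffix for shared probes. fbxa-60 on III, one of the 5 brightest, had 146, 152 and 126 with octopamine against 197, 159 and 209 without, and a fitted change of -0.41 ± 0.13 (SE; adjusted p = 0.0577, limma). Its receptor-mutant ratio was -0.07 against -0.44 in daf-16 and -0.73 in N2, and without the receptor-mutant pair the adjusted p was 0.0051. Without the N2 pair its fitted change was -0.25 and the adjusted p 0.313. fbxa-65 on V had the same order, with -0.13 in the receptor mutant, -0.42 in daf-16 and -0.69 in N2 (adjusted p = 0.0599, limma). The adjusted p was 0.0146 without the receptor-mutant pair and 0.316 without the N2 pair, where the fitted change was -0.27 against -0.41 over all arrays.

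fbxa-64 on V and fbxa-13 on III were lower in all 3 strains, with fitted changes of -0.36 ± 0.12 and -0.34 ± 0.11 (SE; adjusted p = 0.0577 and 0.0633, limma). Among members with positive changes, fbxa-150 on V came nearest. It had 109, 130.3 and 124 with octopamine against 88.2, 122 and 84.4 without, and the untreated receptor mutant lay within the treated range. Its fitted change was 0.32 ± 0.12 (SE; adjusted p = 0.0891, limma), with an adjusted p of 0.0444 after quantile normalization and 0.0248 without the receptor-mutant pair. Without the N2 pair the change was 0.20 (adjusted p = 0.426, limma). A second, dim probe set of fbxa-150, with a mean signal of 9.91, gave ratios of 0.00 in daf-16, 0.17 in the receptor mutant and -0.05 in N2, and the mean of both probe sets gave a change of 0.18 (adjusted p = 0.222, limma). fbxa-215 had an adjusted p of 0.159 over all arrays and 0.025 without the receptor-mutant pair, where its fitted change was -0.35 against -0.23 over all arrays. Without the N2 pair the change was -0.07 and the adjusted p 0.726.

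Counted by direction alone, 14 of the 62 tested fbxa genes were higher with octopamine in all 3 strains (22.6%, against 20.0% of all tested genes). Another 18 were lower in all 3 (29.0%, against 37.6%), and 30 were mixed. All treated arrays were above all untreated ones for 4 members, against 10.7% of all tested genes: fbxa-141, fbxa-153, fbxa-156 and fbxa-63. For fbxa-156 the ratio in N2 was only 0.01, and a probe set it shares with fbxa-157 gave -0.19 there. All treated arrays were below all untreated ones for 10 members, against 21.9% of all tested genes: fbxa-107, fbxa-13, fbxa-181, fbxa-200, fbxa-210, fbxa-60, fbxa-64, fbxa-65, fbxa-83 and fbxa-93.

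Read strain by strain, the family as a whole moved little. The median octopamine log2 ratio of the 62 tested genes was -0.09 in daf-16, -0.03 in the receptor mutant and 0.02 in N2. Over all tested genes these medians were -0.07, -0.07 and -0.06. The signs of the fbxa medians in the receptor mutant and N2 depend on how the data are handled: as deposited they were 0.02 and 0.11, and without the filter on signal, over all 171 members, -0.02 and -0.01. The medians over all tested genes moved with the scaling too. As deposited they were -0.02 in the receptor mutant and 0.03 in N2. The number of members with a positive ratio was 23 in daf-16 (37.1%, against 39.1% of all tested genes), 28 in the receptor mutant (45.2%, against 41.9%) and 34 in N2 (54.8%, against 41.6%).

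Single ratios ran from -0.82 to 0.37 in daf-16, from -0.94 to 1.40 in the receptor mutant and from -0.81 to 1.02 in N2. Their SD across genes was 0.26, 0.35 and 0.33, against 0.36, 0.43 and 0.40 over all tested genes. A ratio of 2-fold or more was seen only for fbxa-163, in the receptor mutant (0.985% of all tested genes) and in N2 (1.2%), and in no member in daf-16 (0.771%). No member was 2-fold lower in daf-16 (1.14%), the receptor mutant (2.17%) or N2 (1.45%). These pairwise ratios have no replicate check.

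In daf-16 the highest ratios among members at or above the filter on both arrays were those of fbxa-120 (0.31), fbxa-150 (0.30), fbxa-163 (0.29), fbxa-145 (0.28) and fbxa-14 (0.26). In the receptor mutant fbxa-163 was followed by fbxa-156 (0.47), fbxa-193 (0.43), fbxa-191 (0.39) and fbxa-153 (0.37). In N2 it was followed by fbxa-79 (0.58), fbxa-150 (0.55), fbxa-11 (0.52) and fbxa-153 (0.46). Apart from fbxa-163, fbxa-150 stood in the lists of daf-16 and N2 and fbxa-153 in those of the receptor mutant and N2.

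At the low end, again among members at or above the filter on both arrays, fbxa-200 was among the 5 lowest in each strain, fbxa-181 and fbxa-60 in daf-16 and N2, and fbxa-93 in daf-16 and the receptor mutant. fbxa-181 also had the lowest ratio of all tested members in the receptor mutant (-0.94), but its treated signal there was below the filter. fbxa-83 on chromosome IV was low mainly in the receptor mutant (-0.52 against -0.15 in daf-16 and -0.22 in N2). There it had 50.5 with octopamine against 72.5 without, while the 4 arrays of the other strains lay between 49.6 and 57.7.

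Pairs of strains share no array in these ratios, so their likeness across genes can be described. Over the 62 members Pearson's r was 0.57 for daf-16 and the receptor mutant, 0.68 for daf-16 and N2, and 0.58 for the receptor mutant and N2. Over all tested genes the values were 0.64, 0.78 and 0.65. Spearman's rho over the members was 0.53, 0.63 and 0.49. Without fbxa-163 the r for the receptor mutant and N2 was 0.47 (n = 61 genes). Genes are not independent replicates, and close family members may share probes.

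**Figure D3:**
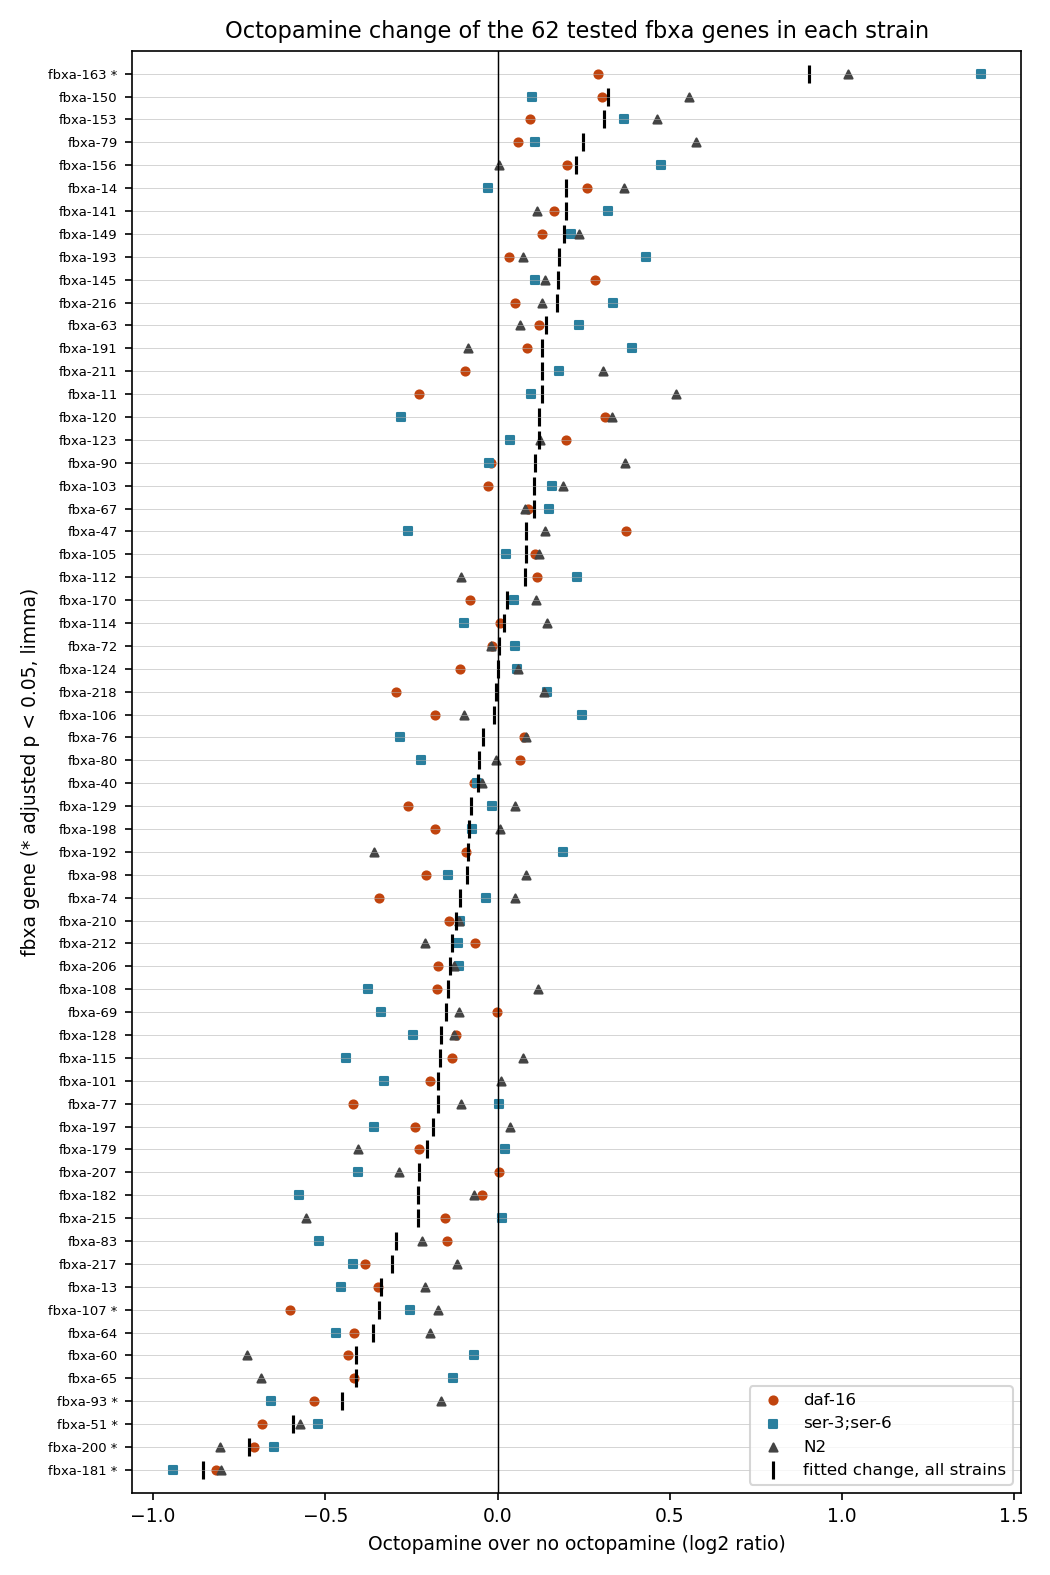
Octopamine log2 ratio (horizontal axis) of each of the 62 tested fbxa genes (vertical axis, ordered by fitted change), with a circle for daf-16, a square for the receptor mutant, a triangle for N2 and a bar for the change fitted over all strains; asterisks mark adjusted p under 0.05 in limma. Most points lie within 0.5 of 0, with fbxa-163 at 1.40 in the receptor mutant at the top and fbxa-181 at -0.94 at the bottom.

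Between strains, no fbxa gene differed in daf-16 from N2 after adjustment (0 of 62, against 0.244% of all tested genes, 0.039% higher and 0.205% lower, limma). At an unadjusted p under 0.05 there were 2 higher and 5 lower members (11.3%, against 6.21% of all tested genes). The lowest adjusted p, 0.416, was that of fbxa-217 on chromosome I, classed as a pseudogene. Its signals in daf-16 were 34.5 with octopamine and 45.1 without, against 54.2 and 58.8 in N2. The receptor mutant had 35.3 and 47.2, so both mutants lay below N2 in each treatment. Fitted over both treatments, fbxa-217 differed by -0.52 ± 0.14 (SE) in daf-16 and by -0.47 ± 0.14 (SE; adjusted p = 0.122, limma) in the receptor mutant.

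With octopamine the median log2 ratio of daf-16 over N2 was -0.08 for the 62 members and -0.02 for all tested genes. Without octopamine it was 0.00 for both. No member differed by 2-fold with octopamine (0.078% of all tested genes higher, 0.312% lower) or without (0.0488% and 0.341%). In both treatments 13 members were higher and 20 lower in daf-16.

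The lowest ratio of daf-16 over N2 with octopamine was that of fbxa-11 on chromosome III, at -0.84. Its signal was 23.0 in treated daf-16 against 41.03 in treated N2, and 26.9 against 28.7 without octopamine, a ratio of -0.09. The octopamine ratio of fbxa-11 was -0.23 in daf-16, 0.10 in the receptor mutant and 0.52 in N2, and the difference between strains could not be tested. After it came fbxa-217 (-0.65), fbxa-98 (-0.53), fbxa-211 (-0.50) and fbxa-163 (-0.42). The highest ratio of all was that of fbxa-112 (0.56), whose N2 signal was below the filter. Among members at or above the filter on both arrays the highest were fbxa-207 (0.29), fbxa-216 (0.27), fbxa-215 (0.25), fbxa-128 (0.24) and fbxa-145 (0.23).

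Without octopamine the highest ratio of daf-16 over N2 was that of fbxa-74 on III, at 0.54, with signals of 31.6 in daf-16 and 21.8 in N2. Among members at or above the filter on both arrays it was followed by fbxa-79 (0.43), fbxa-216 (0.35), fbxa-112 (0.33) and fbxa-90 (0.33), and fbxa-218, below the filter on 1 of them, had 0.39. The lowest was fbxa-192 on V, at -0.57, with 36.2 in daf-16 and 53.7 in N2. Next were fbxa-217 (-0.38), fbxa-212 (-0.30), fbxa-51 (-0.26) and fbxa-105 (-0.25). fbxa-112 and fbxa-216 were thus among the highest in both treatments and fbxa-217 among the lowest. fbxa-216 and fbxa-217 are direct neighbours on chromosome I.

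In the receptor mutant 1 fbxa gene passed the threshold against N2, fbxa-51, but its level there was below the filter. That is 1.61% of the 62 tested, against 2.62% of all tested genes (2.22% lower and 0.4% higher). Its signals in the receptor mutant were 9.40 with octopamine and 13.5 without, against 16.6 and 24.7 in N2. Both receptor-mutant arrays were below both N2 arrays and below the filter. The gene's mean of 15.50 reached the filter signal of 15.46 only through the arrays of N2 and untreated daf-16, so the count is no support for a difference in the family and the size is not known. The ratios were -0.82 with octopamine and -0.88 without, and the fitted difference was -0.85 ± 0.13 (SE; adjusted p = 0.0248, limma). The daf-16 arrays lay between, at 12.9 with octopamine and 20.7 without.

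At an unadjusted p under 0.05 there were 4 higher and 7 lower members in the receptor mutant (17.7%, against 21.6% of all tested genes). fbxa-163 was higher by 0.83 ± 0.23 (SE; adjusted p = 0.10 in limma), with ratios of 1.02 with octopamine and 0.64 without. fbxa-112 on V had 23.96 and 20.4 in the receptor mutant with and without octopamine and 21.7 and 20.0 in daf-16, against 14.8 and 15.9 in N2. Both mutants were above N2 in each treatment, by fitted differences of 0.53 ± 0.14 in the receptor mutant and 0.44 ± 0.14 in daf-16 (SE; adjusted p = 0.089 and 0.526, limma). The probe set of fbxa-112 also carries the suffix for shared probes.

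When the daf-16 pair was left out, 4 members passed for the receptor mutant: fbxa-163 and fbxa-112 were higher, and fbxa-51 and fbxa-69 lower. In that fit 6.70% of all tested genes passed. fbxa-51 and fbxa-69 were below the filter on both receptor-mutant arrays, and fbxa-112 was below it on the treated N2 array. The count is therefore no support for a difference in the family. fbxa-69 on V, named after its values were seen, had 11.4 and 14.4 in the receptor mutant with and without octopamine, against 18.2 and 19.7 in N2. Its fitted difference over all arrays was -0.56 ± 0.14 (SE; adjusted p = 0.0728, limma), and 2 of its signals lay below the filter.

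The median ratio of the receptor mutant over N2 was -0.05 with octopamine and -0.01 without, against -0.07 and -0.05 over all tested genes. At 2-fold, fbxa-163 alone was higher with octopamine (0.146% of all tested genes), and none was lower (1.3%). None reached 2-fold in either direction without octopamine (0.215% higher and 0.673% lower). In both treatments 15 members were higher and 23 lower in the receptor mutant. This count was not made over all tested genes either. Taken singly, 40.3% of the members had a positive ratio with octopamine (40.3% of all tested genes) and 46.8% without (40.9%).

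After fbxa-163, the highest ratios with octopamine among members at or above the filter on both arrays were those of fbxa-193 (0.37), fbxa-216 (0.37), fbxa-218 (0.35) and fbxa-191 (0.34). The lowest were fbxa-197 (-0.66), fbxa-217 (-0.62), fbxa-115 (-0.51), fbxa-108 (-0.50) and fbxa-120 (-0.47). By the same rule, without octopamine the highest after fbxa-163 were fbxa-150 (0.53), fbxa-112 (0.36), fbxa-83 (0.33) and fbxa-40 (0.31). The lowest were fbxa-65 (-0.59), fbxa-192 (-0.40), fbxa-60 (-0.39), fbxa-72 (-0.37) and fbxa-181 (-0.37). Across the 62 members the ratios with and without octopamine correlated at r = 0.50 for the receptor mutant and 0.39 for daf-16, against 0.46 and 0.37 over all tested genes.

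**Figure D4:**
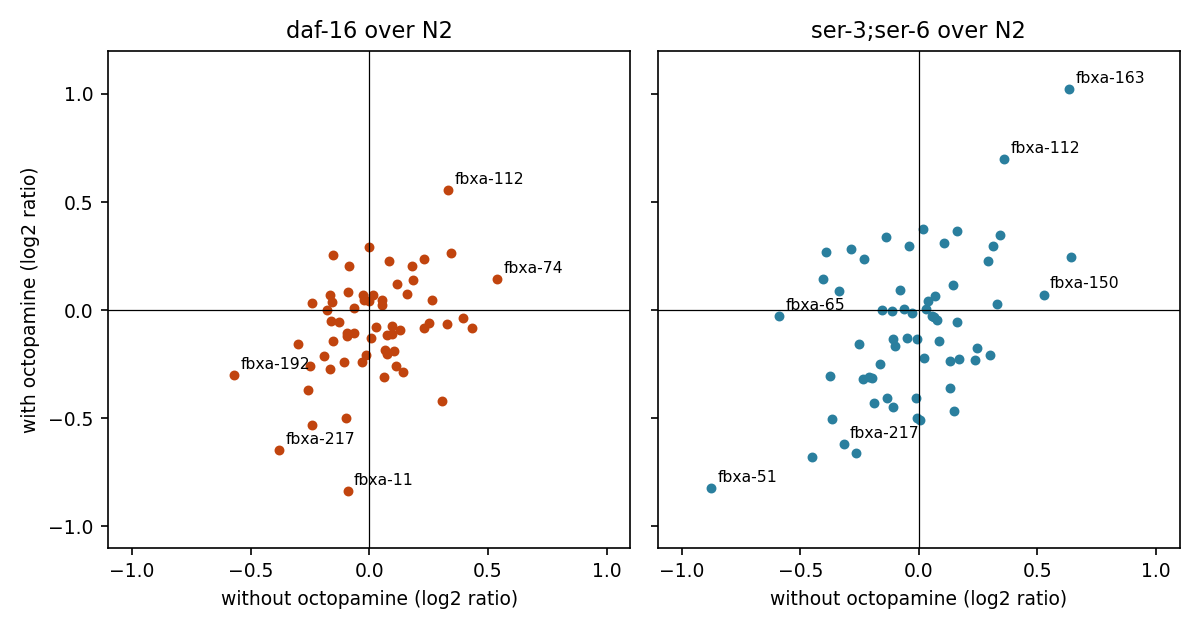
Log2 ratio of daf-16 (left) and the receptor mutant (right) over N2 for the 62 tested fbxa genes, with octopamine (vertical axis) against without (horizontal axis). fbxa-51 lies low on both axes in the receptor-mutant panel (-0.82 and -0.88), fbxa-163 lies high on both (1.02 and 0.64), and fbxa-11 is low in daf-16 with octopamine only (-0.84 against -0.09).

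Many fbxa genes are neighbours in the genome. In the gene order of WBcel235 the family has 222 members, 52 of them pseudogenes, of which 171 had a probe set of their own. Counting as neighbours family members at most 5 places apart in gene order, 164 of the 222 lie in 37 runs of 2 or more. The longest run, of 33 genes on chromosome III, had 14 genes on the array and 6 tested, whose fitted octopamine changes lay between -0.17 and 0.25.

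fbxa-163 lies in a run of 9 genes on chromosome II with fbxa-158 and fbxa-159 to fbxa-166. All 9 were on the array and fbxa-163 was the only one with enough signal to be tested. fbxa-51 ends a run of 12 on chromosome III, where the other tested genes were fbxa-60, fbxa-67 and fbxa-11, with fitted changes from -0.41 to 0.13 for these 3 against -0.59 for fbxa-51. On V, fbxa-107 and its neighbours fbxa-210, fbxa-211 and fbxa-212 were all tested. Their mean signals ran from 21.5 to 453 and their fitted changes from -0.34 to 0.13.

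The direction of the fitted change was also compared between immediate neighbours. There were 10 pairs of directly adjacent fbxa genes of which both were tested. The fitted change had the same sign in 4 of these, and the median absolute difference within a pair was 0.22 on the log2 scale. Several pairs share a gene, and of the genes in them only fbxa-107 had passed the threshold. No other pairs of genes were compared, so the count cannot tell whether neighbours change together. In the run of 5 tested genes on V (fbxa-191, fbxa-192, fbxa-193, fbxa-129 and fbxa-108) signs were mixed, with fitted changes of 0.13, -0.09, 0.18, -0.08 and -0.14, none past the threshold.

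**Figure D5:**
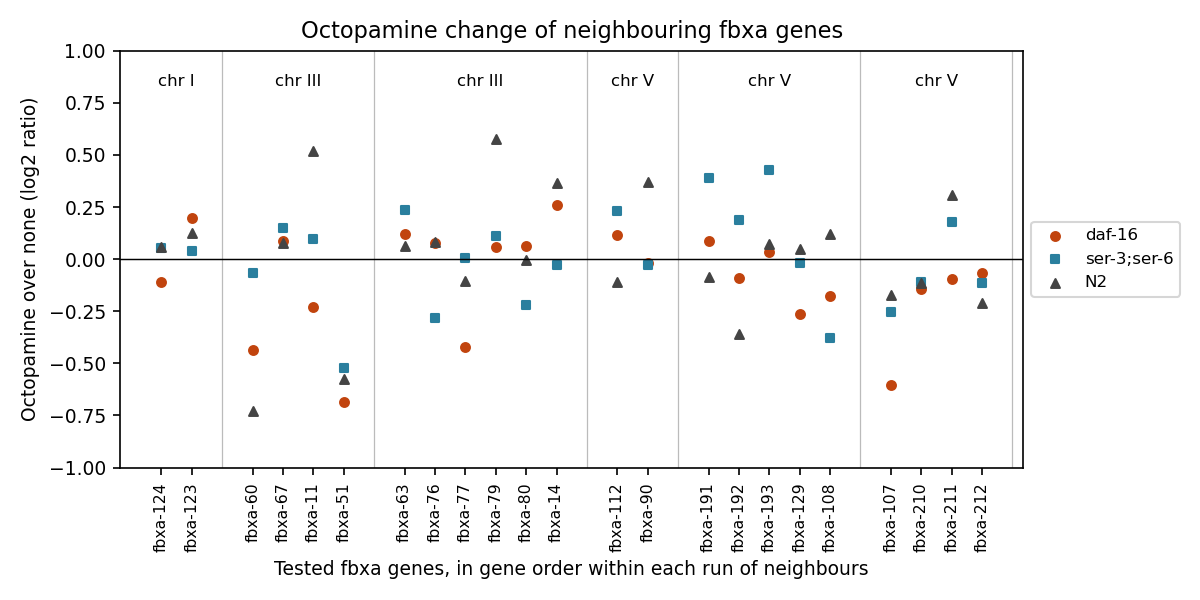
Octopamine log2 ratio in each strain (vertical axis) of tested fbxa genes that lie in the 6 runs of 3 or more neighbours with at least 2 tested, in gene order within each run (horizontal axis). Within a run the genes differ, as where fbxa-51 is low in all 3 strains (-0.68, -0.52 and -0.57) and fbxa-67 of the same run is near 0.

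The adaptors known from the CUL-6 ligase were dim. fbxa-75 lay between 4.401 and 5.53 on all arrays. fbxa-158 had 11.4, 13.1 and 14.9 with octopamine in daf-16, the receptor mutant and N2, against 7.03, 10.1 and 8.29 without. All its treated arrays were above all untreated ones, but all 6 were below the filter. In a fit without the filter its change was 0.64 ± 0.11 (SE; adjusted p = 0.00655, limma). cul-6 itself, the cullin of that ligase, rose by 0.42 ± 0.11 (SE; adjusted p = 0.0302, limma), with 61.1, 80.7 and 72.4 with octopamine against 48.7, 57.2 and 53.7 without. Of the 11 genes of an intracellular pathogen response list on the array, 4 were tested and cul-6 was the one that changed. Of all tested genes 22.1% changed.

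Other parts of the ligase machinery moved in both directions. Among 20 tested SCF core subunits 5 rose and 2 fell, where 7.37% of all tested genes rose and 14.7% fell. All 7 were SKR genes, which make up most of the list and whose products link F-box proteins to the cullin. Those that rose were skr-21 (0.80), skr-19 (0.70), skr-20 (0.55), skr-10 (0.42) and skr-7 (0.35), and those that fell were skr-11 (-0.85) and skr-17 (-0.32). skr-19 had 351, 387 and 414 with octopamine against 207, 251 and 254 without, with no overlap. The median ratio of the list was 0.14 in daf-16, -0.07 in the receptor mutant and 0.31 in N2.

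For the lists that follow, the shares of all tested genes are again 7.37% higher and 14.7% lower. The counts in these short lists were not tested against those shares. Of the 5 other cullins, cul-6 rose and cul-5 fell (-0.52). Of 11 genes of neddylation, CAND1 and the COP9 signalosome, which switch cullin ligases on and off, none rose and 2 fell, ula-1 (-0.32) and csn-4 (-0.46). None of 3 genes for ubiquitin and its activating enzyme changed. Of 10 F-box genes with other names 3 fell: sel-10 (-0.30), whose product limits Notch signalling, mec-15 (-0.41), needed for touch sensation, and fog-2. fog-2 carries the FTH domain found in FBXA proteins, and was left out of the members because of its symbol. It had 316, 270 and 327 with octopamine against 391, 329 and 386 without, and fell by 0.28 ± 0.08 (SE, adjusted p = 0.0433 in limma).

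The sister classes fbxb and fbxc give the scale of the fbxa counts. Of 95 fbxb genes on the array 47 were tested, of which 17 rose with octopamine and 1 fell, with a median ratio of 0.25 in daf-16, 0.24 in the receptor mutant and 0.41 in N2. Of 44 fbxc genes 25 were tested, of which 7 rose and 4 fell, with medians of 0.15, 0.22 and 0.28. Of all tested genes 7.37% rose and 14.7% fell. For fbxa the counts were 1 and 5 of 62, with medians of -0.09, -0.03 and 0.02. The difference between the classes was not tested.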

How the data were processed

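The 6 groups with 1 array each were compared. The authors deposited 1 intensity value, on a linear scale, for each probe set of each array, and the summarisation and normalisation behind them are not given in the sources used here. Genes were named through the platform annotation, with current names and gene order from assembly WBcel235. Intensities were taken to log2 without a pseudocount, and each array's median was subtracted, because the medians spanned 0.127. Genes with a mean at or above the 40th percentile of all probe sets (signal 15.5) were tested with limma 3.58.1 in R 4.3.3 (strain plus octopamine, mean-variance trend, 2 residual and 6.28 prior degrees of freedom, Benjamini-Hochberg threshold 0.05). The procedure was also run on simulated data, with the same octopamine change in every strain and variances drawn from the fitted prior. That run cannot tell how the calls fare where the change differs between strains. Ratios between a pair of arrays were given no test. Tables were built in Python 3.11.15 with pandas 2.3.3 and plots with matplotlib 3.10.9.

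Genes were named by rule: those called, the 5 highest and lowest ratios of each comparison with both arrays at or above the filter, the 5 brightest, fbxa-75, fbxa-158, and members of the comparison lists called for octopamine. Genes named beyond this rule were chosen after their values were seen. The members and lists were chosen with earlier results of these data known. Alternatives covered scaling, filter, pseudocount, choice of probe sets, variance trend and leaving out each pair of arrays. The number of arrays limits the precision.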

Additional observations from a re-analysis of the deposited data

How the results depend on the processing

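The model pairs the treated and untreated arrays of each strain through its strain term. Beyond that, by replicate number, no paired analysis was possible because each group had a single array. Of the 62 tested fbxa genes 6 changed with octopamine. That count was 2 of 21 (1 higher, 1 lower) with a filter at the 60th percentile, which leaves fewer genes and called 27.9% of all tested genes. It was 4 to 9 when 1 strain's pair of arrays was left out: 4 without daf-16 (16.1% of all tested genes), 5 without N2 (10.3%) and 9 without the receptor mutant (25.9%). Under the other 7 settings it lay between 4 and 8, with 1 to 3 higher. The shares of all tested genes under those 7 are not given, so these counts have no background beside them. For the receptor mutant against N2 the count of 1 was 0 with the stricter filter and 4 without the daf-16 pair (6.70% of all tested genes); the cause was not tested. For daf-16 against N2 it was 0 in all 9 alternatives. fbxa-163, fbxa-181, fbxa-200 and fbxa-51 passed for octopamine in every setting that tested them, fbxa-93 in 7 of 10 and fbxa-107 in 5 of 12. For fbxa-51, tested largely through untreated arrays where it was high, passing in these settings adds no support. Of 59 results on named genes followed across settings, 8 changed sign, all of them octopamine changes that had not passed. When a pair of arrays was left out, fbxa-11 ranged from -0.066 (without N2) to 0.307, fbxa-192 from -0.225 to 0.049 (without N2), fbxa-90 from -0.022 (without N2) to 0.176, fbxa-218 from -0.080 to 0.138 (without daf-16), fbxa-74 from -0.19 to 0.0081 (without daf-16) and fbxa-72 from -0.017 (without the receptor mutant) to 0.017. As deposited, fbxa-218 was at 0.052 and fbxa-40 at 7.2e-05, after quantile normalization fbxa-210 was at 0.0027, and with a pseudocount of 16 fbxa-72 was at -0.0016. The change of fbxa-51 on the log2 scale was -0.30 with a pseudocount of 16 against -0.59, and that of fbxa-181 -0.51 against -0.85, since a pseudocount shrinks the ratios of dim genes. The fbxa median in N2 was -0.01 without the filter and 0.02 to 0.11 under the other settings. Over all tested genes the N2 median was -0.06 with median scaling, 0.03 as deposited and 0.0020 after quantile normalization. Signals near the lowest on the array limit what can be read of the 109 untested members.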

Other observations

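In all, 16 probe sets matched several fbxa genes, or an fbxa gene and another, and belong to no comparison above. Of these, 3 reached the filter. The one shared by fbxa-157 and fbxa-156 had a mean signal of 81.1. Its octopamine log2 ratios were 0.14 in daf-16, 0.03 in the receptor mutant and -0.19 in N2. The probe set assigned to fbxa-156, which also carries the suffix for shared probes, gave 0.20, 0.47 and 0.01. The one shared by fbxa-208 and fbxa-77 gave -0.59, -0.34 and 0.10, and that shared by fbxa-92 and fbxa-91 gave -0.23, -0.55 and -0.30. For fbxa-92 and fbxa-91, every treated signal lay below the filter and every untreated signal above it. The mean of that probe set thus reached the filter only through untreated arrays, where it was high. Its ratios are therefore no support for a fall, and their size is uncertain. A dim probe set shared by fbxa-221 and fbxa-154 had 13.6, 16.1 and 15.7 with octopamine in daf-16, the receptor mutant and N2, against 7.95, 9.47 and 9.47 without. Its ratios were 0.78, 0.76 and 0.73, and it was chosen after its values were seen.

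Among members below the filter, also chosen after their values were seen, fbxa-24 and fbxa-190 passed in the fit without a filter. fbxa-24 changed by 0.44 (adjusted p = 0.0268, limma) and fbxa-190 by -0.38 (adjusted p = 0.012, limma). The probe set of fbxa-24 carries the suffix for shared probes, so its signal may not come from that gene alone. The share of all genes that passed in that fit is not given. fbxa-6 had a signal of 24.4 on the treated receptor-mutant array and 11.4 to 14.7 on the other 5. No tested fbxa gene was at least 1.5-fold higher with octopamine in one strain and at least 1.5-fold lower in another.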
